A study of Danio rerio with 6 samples.

Results

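The blastema marker genes described here are 10 zebrafish genes of the msx, dlx, midkine and sall families: msx1a, msx1b, msx2b, msx3, dlx2a, dlx4a, dlx5a, mdka, mdkb and sall4. They were taken as every Affymetrix probe set whose only gene symbol in the array's annotation was one of these names, which gave 13 of the 15502 probe sets tested; 8 of the genes had 1 probe set, msx3 had 3 and sall4 had 2. RNA came from regenerating tail fins of AB strain zebrafish larvae. Fins had been cut at 2 days post fertilization and the regrowing tissue was collected 1 day later. The exposed group was 3 pools from larvae swimming in 1 uM beclomethasone, a glucocorticoid drug, with DMSO named as the vehicle, and the control group was 3 pools from cut larvae without the drug. Each pool held 150 fins. The controls count as vehicle-treated in the series description, but the protocol given for them is that of a regeneration time course without a vehicle. The labels do not say whether pools came from separate clutches or days. The p-values therefore set the difference between groups against the spread between these pools, which may be technical. No batch is labelled, so the exposure and any difference between experiments cannot be told apart.

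A blastema is the mound of proliferating, undifferentiated cells that forms under the wound epidermis of a cut fin and from which the lost part regrows. Msx genes encode homeodomain transcription factors, mostly repressors, that are expressed in the blastema and the overlying epidermis of regenerating zebrafish fins and respond to BMP signals. Dlx genes encode related Distal-less homeodomain factors of the apical fin fold, the pharyngeal arches, the placodes and the forebrain, and many lie in the genome as neighbouring pairs. Midkines are secreted heparin-binding growth factors, best known in zebrafish from the nervous system, and sall4 encodes a zinc finger factor of fin and limb development and of mammalian pluripotent cells.

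The deposited values are ratios. Most probe sets had a median of 1 across the 6 arrays, so the values show differences between pools and give no expression level. A median below 1, for which the divisor is unknown, was found for 3 of the 13 probe sets (1 of msx3 and both of sall4), against 19.0% of all tested probe sets. Array medians lay between 0.955 and 0.998 in exposed pools and between 0.963 and 0.977 in control pools, and the number of arrays limits the precision of every value. Some pools stood apart in markers of tissues other than the fin. The summed ratios of 9 liver and yolk probe sets were 75.3, 207 and 8.37 in exposed pools 1 to 3, against 6.15 to 8.28 for the controls. Their median log2 ratio was -0.03, 1.23 and -0.02 in exposed pools 1 to 3, and -0.61 to -0.05 in the controls. By the median, only exposed pool 2 was far above the rest. For 16 skeletal muscle probe sets the sums were 27.4, 16.3 and 16.9 in the exposed fins, against 4.90, 15.5 and 6.59 in the control fins. For 12 leukocyte probe sets they were 11.5 to 12.3 in exposed fins, against 10.1 in control pool 1 and 20.3 and 20.4 in the other control pools. With no level in the values, the labelled tissue could not be checked for presence of its markers. Of 13 epidermis and 13 fin fold mesenchyme probe sets, 1 and 3 had a median below 1.

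Of the 13 probe sets, 1 was higher in exposed fins, that of mdkb, and 0 were lower (limma, Benjamini-Hochberg adjusted p under 0.05 over all probe sets). Over all probe sets 2.88% passed as higher and 3.24% as lower. None of the members was lower at an unadjusted p under 0.05 either, and 2 were higher, mdkb and dlx4a; 21% of all probe sets passed that threshold in one direction or the other. The median log2 difference (exposed minus control) of the members was 0.0003, beside 0.029 for all probe sets, and the differences ran from -0.81 for msx2b to 1.05 for mdkb. The groups did not overlap for 2 of the 13, both higher in exposed fins, where 14.5% of all probe sets were higher without overlap and 11.8% lower. With 13 probe sets, 1 call and 2 pairs of separate groups are 7.69% and 15.4% of the members. In pooled fins, fewer cells of a type and less RNA per cell cannot be told apart.

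**Figure D1:**
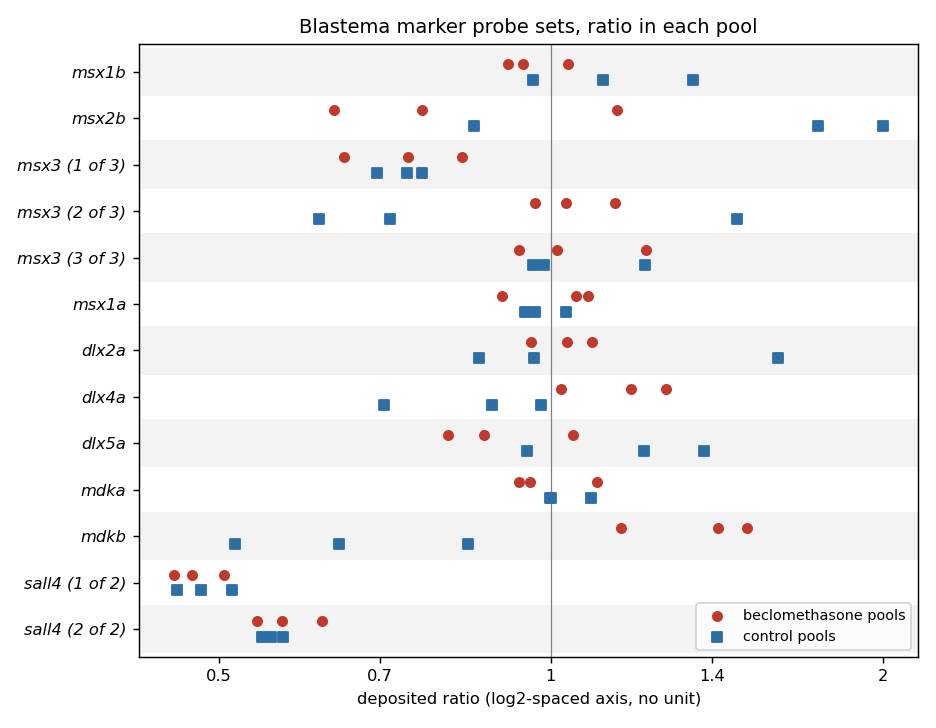
Deposited ratio (log2-spaced horizontal axis, no unit) of each of the 13 probe sets in 3 beclomethasone pools (circles, upper row of each pair) and 3 control pools (squares, lower row). Circles and squares do not overlap for dlx4a and mdkb, and the control pools of msx2b and of 1 msx3 probe set are spread widely.

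Of the midkine paralogs, mdkb passed the test and mdka did not. The ratios of mdkb were 1.51, 1.42 and 1.16 in exposed pools 1 to 3, against 0.841, 0.643 and 0.517 in control pools 1 to 3. Every exposed pool was above every control pool. The mean ratio was 1.36 ± 0.181 in exposed fins and 0.667 ± 0.163 in control fins (SD, n = 3 each), a log2 difference of 1.05 ± 0.19 (SE; 2.07-fold, 95% interval 1.51 to 2.83; limma adjusted p = 0.0252). The other midkine gene, mdka, had ratios of 1.101, 0.957 and 0.935 in exposed pools, against 0.999, 1.00 and 1.09 in control pools. Its groups overlapped, with a log2 difference of -0.05 ± 0.11 (adjusted p = 0.867) and a 95% interval from 0.813-fold to 1.15-fold. The log2 difference of mdkb minus mdka within an array was 0.31 to 0.57 in exposed fins and -1.07 to -0.25 in control fins. These did not overlap, and the exact permutation test gave p = 0.1 (two-sided, n = 3 each), the smallest that 3 against 3 arrays allow. It was one of 4 such pairs of genes compared, chosen after their values were seen, and the p adjusted over the 4 was 0.133. The groups of mdkb alone already did not overlap, so this test adds no support to its rise.

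The rise of mdkb kept its direction without any 1 array, with log2 differences of 0.88 (without control pool 3) to 1.23 (without control pool 1). Its adjusted p was 0.00498 without control pool 1, and 0.0599 to 0.0968 in the other 5 fits with an array left out, where it was no longer called. Without exposed pools 1 and 2 together, the pools with high summed liver and yolk ratios, the difference was 0.82. By the median log2 ratio of that list only pool 2 was high, and the fit kept a lone exposed array. That setting was chosen after seeing the data.

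Neural markers moved in the same direction as mdkb, as did markers of several other tissues. Of 15 probe sets of neuronal markers, 4 passed as higher and none as lower, and 9 were higher without overlap. Among all probe sets, 2.88% passed as higher, 3.24% passed as lower and 14.5% were higher without overlap. Their summed ratios were 27.4, 16.99 and 16.7 in exposed pools 1 to 3, against 10.6, 12.8 and 11.8 in control pools 1 to 3. Among 12 probe sets of glia and neural progenitors, 2 were higher and none lower. Their summed ratios were 15.08, 12.8 and 12.4 in exposed pools 1 to 3, against 11.1, 10.5 and 9.06 in control pools 1 to 3. Within each group these sums had the same order of pools as the ratios of mdkb. The neuronal sums had that order in the exposed pools only. Among the controls, control pool 1 had the highest ratio of mdkb and the lowest summed neuronal ratio. By the median log2 ratio, control pool 2 was the highest control pool in both lists, at -0.11 for glia and neural progenitors and -0.14 for neurons. Proliferation markers moved the other way, with 14 of 22 probe sets lower and none higher, and summed ratios of 14.5 to 17.6 in exposed fins against 24.7 to 27.6 in control fins. Without overlap, 4 of 5 notochord and floor plate and 5 of 9 neural crest and cartilage probe sets were higher. So were 8 of 16 skeletal muscle and 4 of 9 liver and yolk probe sets, and none of these 4 lists had a lower one. Fewer passed as higher at the adjusted threshold: 1 notochord and floor plate, 1 neural crest and cartilage, 0 skeletal muscle and 0 liver and yolk probe sets. Of 13 epidermis probe sets, 1 was higher and 4 were lower without overlap, against 14.5% and 11.8% of all probe sets. At the adjusted threshold 2 of the 13 epidermis probe sets passed as lower and 0 as higher. Of 13 fin fold mesenchyme probe sets, which include that of the member msx1b, 2 were higher and 0 lower without overlap. At the adjusted threshold 1 of these passed as higher and 0 as lower. The part of these tissues and markers in the result for mdkb was not tested.

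**Figure D2:**
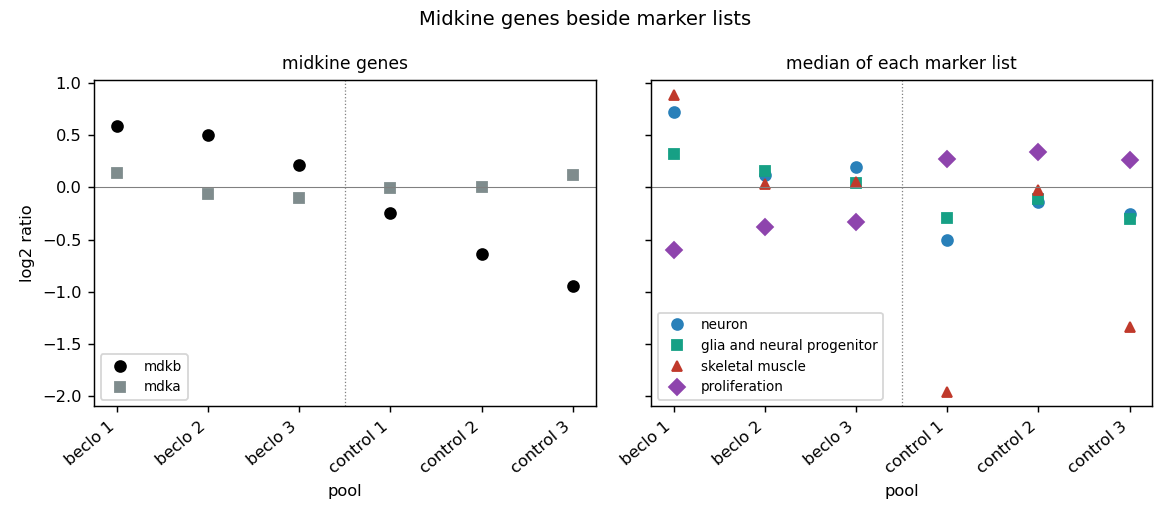
Log2 ratio in each pool of mdkb and mdka (left) and the median log2 ratio of 4 marker lists (right), beclomethasone pools before control pools. The points of mdkb lie above 0 in the exposed pools and below 0 in the control pools, those of mdka stay near 0, and the neuron and muscle medians were highest in exposed pool 1.

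In the order of genes in RefSeq's zebrafish table, mdkb lies between dgkzb and chrm4b, and mdka between dgkza and chrm4a, paralogous neighbours at both loci. Of these 4 neighbours only dgkzb, a diacylglycerol kinase gene, was matched to a probe set. It had a log2 difference of 0.11 ± 0.12 (adjusted p = 0.732), with overlapping groups. The 3 named probe sets most like mdkb, outside the members, were those of the stress-response gene tp53inp1 (Pearson r = 0.998 over the 6 arrays), the GABA transaminase gene abat (r = 0.997) and the muskelin gene mkln1 (r = 0.996). Tp53inp1 rose by 0.90 ± 0.18 (adjusted p = 0.0304) and abat by 0.87 ± 0.17 (adjusted p = 0.0278), while mkln1 had a value of 0.57 ± 0.14 (adjusted p = 0.0639). Like mdkb, tp53inp1 and abat kept their calls only without control pool 1, among the 6 fits with 1 array left out, while mkln1 passed there alone (adjusted p = 0.0223). An r above 0.9 with mdkb was found for 439 of the 15502 probe sets, 2.83%, and the difference between the groups enters each such r.

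Of 26 listed genes for midkine receptors and binding partners, only 10 were matched to a probe set. The receptor genes ptprz1a, ptprz1b, alk and ltk were among those not measured. The 14 probe sets of the 10 genes showed 1 fall and no rise, with a median log2 difference of -0.02. Of all probe sets, 3.24% passed as lower. The fall was that of 1 probe set of notch2, a Notch receptor, at -0.49 ± 0.10 (adjusted p = 0.0359; adjusted p = 0.0552 to 0.114 with any 1 array left out). Values for the other 2 notch2 probe sets were 0.13 ± 0.14 (adjusted p = 0.685) and -0.14 ± 0.17 (adjusted p = 0.744). Only 1 probe set of this gene thus passed, and the first of the other 2 had the opposite sign. The second had a median of 0.584, so its divisor is unknown.

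No msx probe set passed. For msx1b, a marker gene of the zebrafish fin blastema, the ratios were 0.915, 1.04 and 0.944 in exposed pools 1 to 3, against 1.35, 1.12 and 0.963 in control pools 1 to 3. Exposed pool 2 lay above control pool 3, and the rest of the exposed values lay below all control values. The log2 difference was -0.23 ± 0.14 (adjusted p = 0.437), with a 95% interval from 0.677-fold to 1.07-fold.

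Msx2b had the lowest difference of the members and the largest SD within groups, pooled over both. Its ratios were 0.636, 1.15 and 0.764 in exposed pools, against 2.00, 1.75 and 0.852 in control pools. Control pools 1 and 2 were above all exposed pools, and control pool 3 was below exposed pool 2. The mean was 0.849 ± 0.266 in exposed fins and 1.53 ± 0.603 in control fins (SD, n = 3 each), a log2 difference of -0.81 ± 0.35 (adjusted p = 0.245; 95% interval 0.325-fold to 1.01-fold). Its SD within groups, 0.56 on the log2 scale, was larger than that of 97.8% of all probe sets. Without control pool 3 the difference was -1.18 and the adjusted p 0.0669, and without any 1 other array the difference ran from -1.04 to -0.57.

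Msx2a, the remaining msx gene on the array and not a member, had ratios of 1.03, 0.967 and 0.741 in exposed pools, against 1.76, 1.51 and 0.954 in control pools. Its log2 difference was -0.59 ± 0.24 (adjusted p = 0.216), with exposed pools 1 and 2 above control pool 3.

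The 3 probe sets of msx3 differed in their patterns. The one annotated with a RefSeq transcript had ratios of 0.936, 1.01 and 1.22 in exposed pools, against 1.22, 0.963 and 0.986 in control pools, and a log2 difference of 0.0003 ± 0.14 (adjusted p = 0.999). Another, with the largest SD within groups of the 3, had ratios of 0.968, 1.14 and 1.03 in exposed pools, against 1.48, 0.616 and 0.715 in control pools. Control pool 1 was above and control pools 2 and 3 below every exposed pool, and the log2 difference was 0.27 ± 0.30 (adjusted p = 0.722). Without control pool 1 this probe set was higher by 0.66 at an adjusted p of 0.0271, and the other 2 probe sets were not called there. The remaining one, of median 0.741, lay between 0.649 and 0.830 in exposed pools and between 0.696 and 0.765 in control pools, with a difference of 0.008 ± 0.12 (adjusted p = 0.980). The scattered and the low-median probe set share their name stem with 6 others annotated to elavl3 (2), tnn (2), rps24 (1) and rnaseh2c (1), so this stem does not mark 1 gene, and the assignment of both to msx3 rests on the array's annotation alone.

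Msx1a had ratios of 0.903, 1.08 and 1.05 in exposed pools, against 1.03, 0.948 and 0.968 in control pools. The difference was 0.04 ± 0.11 (adjusted p = 0.892), with a 95% interval from 0.860-fold to 1.23-fold, one of the narrowest among the members. Over the whole msx family, 7 probe sets of 5 genes, 0 passed in either direction, with 1 (msx2a) at an unadjusted p under 0.05 in limma.

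**Figure D3:**
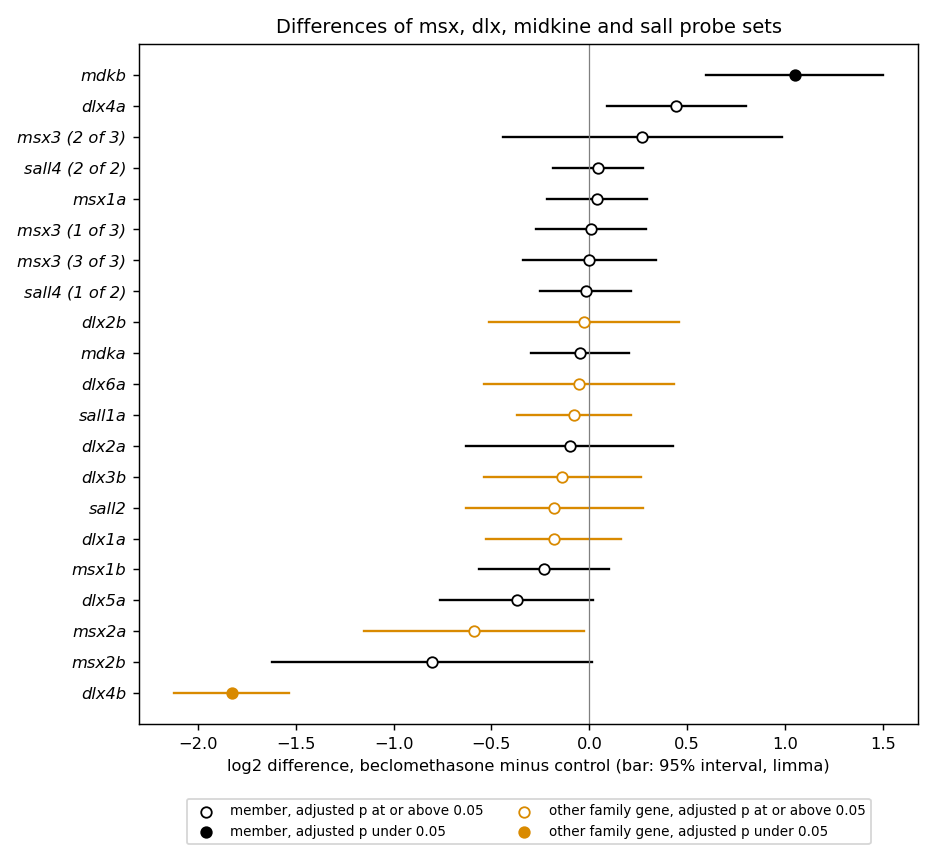
Log2 difference (beclomethasone minus control) with its 95% interval from limma for the 13 member probe sets (black) and 8 other msx, dlx and sall probe sets (orange), ordered by value. Filled points passed at an adjusted p under 0.05, which were mdkb at 1.05 and dlx4b at -1.83.

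The dlx members had differences in both directions, none of which passed. Dlx4a was higher in every exposed pool than in every control pool, with ratios of 1.02, 1.18 and 1.27 in exposed pools, against 0.706, 0.979 and 0.884 in control pools. The gap was narrow, from 1.02 in the lowest exposed pool to 0.979 in the highest control pool. The mean was 1.16 ± 0.127 in exposed fins and 0.856 ± 0.139 in control fins (SD, n = 3 each), a log2 difference of 0.44 ± 0.15 (adjusted p = 0.146; 95% interval 1.06-fold to 1.74-fold). The difference stayed positive in all 16 alternatives run, from 0.22 to 0.58. The 0.22 came with a pseudocount of 1, which shrinks log2 differences and so is on another scale. With 1 array left out the lowest difference was 0.31. The 0.58 came from the fit that kept a lone exposed array. In the other alternatives the limma adjusted p ran from 0.0568 to 0.346.

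Dlx5a, a gene of the apical fin fold, had ratios of 0.808, 1.05 and 0.870 in exposed pools, against 1.38, 1.22 and 0.952 in control pools. Control pools 1 and 2 were above all exposed pools, and control pool 3 was below exposed pool 2. The log2 difference was -0.37 ± 0.17 (adjusted p = 0.265; 95% interval 0.590-fold to 1.01-fold). Dlx6a, its neighbour in the genome, had a value of -0.05 ± 0.21 (adjusted p = 0.920).

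Dlx2a had ratios of 0.961, 1.09 and 1.03 in exposed pools, against 1.61, 0.965 and 0.861 in control pools, with control pool 1 alone above the rest. Its difference was -0.10 ± 0.23 (adjusted p = 0.867), and it changed sign, to 0.17, without control pool 1. The neighbouring dlx1a had a value of -0.18 ± 0.15 (adjusted p = 0.590), and its highest ratio, 1.38, was also that of control pool 1. Control pool 1 held the highest of the 6 ratios for dlx3b (1.36), dlx6a (1.52) and dlx2b (1.42) as well. The differences were -0.14 ± 0.17 for dlx3b (adjusted p = 0.756) and -0.03 ± 0.21 for dlx2b (adjusted p = 0.960). The signs of dlx2a, dlx3b, dlx6a and dlx2b turned without control pool 1 and with array weights, and that of dlx2b also with quantile normalization and without exposed pool 1 or 3.

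The only dlx gene that passed was dlx4b, which is not among the members. It had ratios of 0.446, 0.504 and 0.385 in exposed pools, against 1.496, 1.56 and 1.66 in control pools, so that the lowest control pool was far above the highest exposed pool. The mean ratio was 0.445 ± 0.0596 in exposed fins and 1.57 ± 0.0822 in control fins (SD, n = 3 each). Dlx4b fell by 1.83 ± 0.12 on the log2 scale (0.282-fold, 95% interval 0.230 to 0.345; limma adjusted p = 0.000793). It passed without any 1 array, with differences of -1.92 to -1.73 and adjusted p from 0.000674 to 0.0112. Without exposed pools 1 and 2 together it was at -2.03 with an adjusted p of 0.0834. It was the single fall, with no rise, among 8 probe sets of the 8 dlx genes measured, whose median was -0.12. Of all probe sets, 3.24% passed as lower.

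Dlx4b lies beside dlx3b in the order of genes, and both act in zebrafish ear and olfactory placode development. The difference of dlx4b minus dlx3b within an array was -1.32 to -0.99 in exposed fins and 0.13 to 0.81 in control fins. That of dlx4b minus its paralog dlx4a was -1.73 to -1.19 for exposed fins and 0.67 to 1.08 for control fins. Neither overlapped between groups. The exact permutation p was 0.1 for each (two-sided, n = 3 each), the smallest possible, and 0.133 adjusted over the 4 pairs. The pairs were chosen after their values were seen, and the groups of dlx4b alone already did not overlap. These tests therefore add no support to its fall. For msx2b minus msx1b the exact permutation p was 0.2 (also 0.2 after adjustment).

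**Figure D4:**
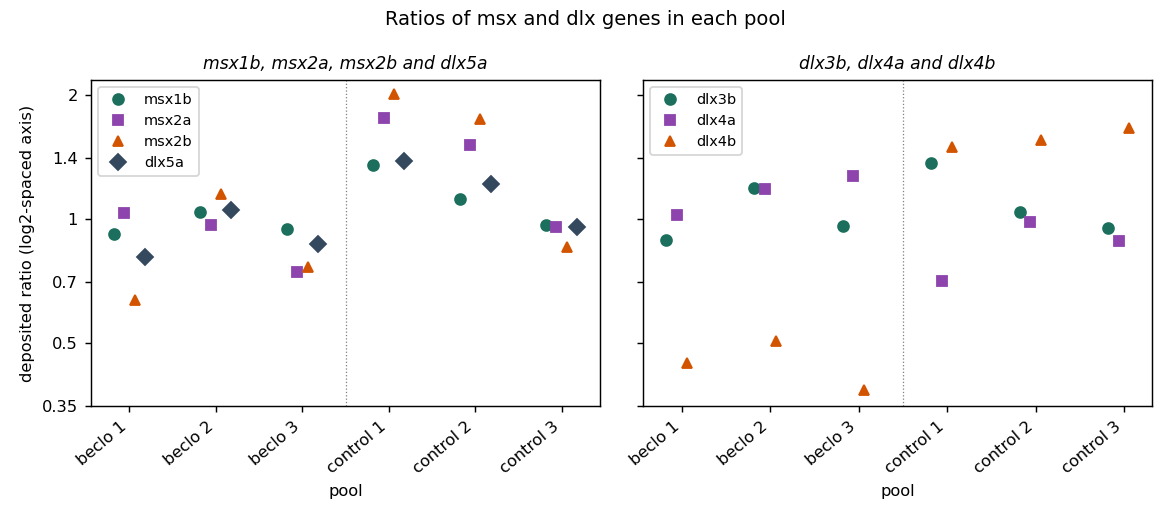
Deposited ratio (log2-spaced vertical axis) in each pool, beclomethasone pools before control pools, of msx1b, msx2a, msx2b and dlx5a (left) and of dlx3b, dlx4a and dlx4b (right). The 4 genes on the left were highest in control pool 1 and reached the exposed range in control pool 3, while dlx4b lay between 0.385 and 0.504 in all exposed pools and between 1.496 and 1.66 in all control pools.

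Msx1b, msx2a, msx2b and dlx5a had alike patterns over the 6 arrays, a grouping made after their values were seen. In each, control pool 1 was highest, control pool 2 next, and control pool 3 was exceeded by at least 1 exposed pool. Pearson's r between the members of this group was 0.939 for msx1b and msx2b, 0.962 for msx1b and dlx5a and 0.992 for msx2b and dlx5a, and 0.856 to 0.871 with msx2a. These correlations are over 6 arrays that share their processing. An r above 0.9 with msx2b was found for 245 of 15502 probe sets, 1.58%. The 3 most alike outside the members were the splicing factor gene puf60b (r = 0.998) and the ribosomal protein genes rpl29 (r = 0.996) and rpl21 (r = 0.994, for 1 of its 2 probe sets). Their log2 differences were -0.31 ± 0.15 for puf60b (adjusted p = 0.292), -0.23 ± 0.14 for rpl29 (adjusted p = 0.434) and -0.24 ± 0.14 for rpl21 (adjusted p = 0.429). Of 80 probe sets with ribosomal protein symbols, a list added after the values of msx2b were seen, 11 had such an r. The rpl29 and rpl21 probe sets named above are among the 11, so this count is no test against the share over all probe sets. The median log2 ratio of the 80 was -0.07, 0.02 and -0.005 in exposed pools 1 to 3, against 0.18, 0.02 and -0.10 in control pools 1 to 3, so control pool 1 was highest there too, and the lowest was control pool 3, where in the 4 genes it was an exposed pool.

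Both sall4 probe sets had low ratios on every array and overlapping groups. The ratios of the lower one were 0.456, 0.473 and 0.505 in exposed pools, against 0.458, 0.514 and 0.481 in control pools. Those of the other, whose name ending x_at marks probes that can also bind other transcripts, were 0.542, 0.570 and 0.620 in exposed pools, against 0.557, 0.547 and 0.572 in control pools. The log2 differences were -0.02 ± 0.10 (adjusted p = 0.944) and 0.05 ± 0.10 (adjusted p = 0.862), with 95% intervals from 0.840-fold to 1.16-fold and from 0.880-fold to 1.21-fold. With medians of 0.477 and 0.564 both probe sets have an unknown divisor. The value of sall1a was -0.08 ± 0.12 (adjusted p = 0.813) and that of sall2 was -0.18 ± 0.19 (adjusted p = 0.707). Among 10 probe sets of 8 pluripotency genes listed as partners of sall4, 0 passed in limma. Without overlap, 3 were higher and 0 lower, against 14.5% and 11.8% of all probe sets.

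BMP signals are known inputs to msx and dlx genes. Of 27 probe sets of 23 BMP pathway genes, 1 rose, 1 fell and the median was 0.03. These counts were near the shares over all probe sets, where 2.88% passed as higher and 3.24% as lower. The rise was that of nog1, a secreted BMP antagonist, by 0.60 ± 0.12 (ratios of 1.14, 1.31 and 1.12 in exposed pools, against 0.701, 0.877 and 0.793 in control pools; adjusted p = 0.0348). The fall was that of bambia, a pseudoreceptor that dampens BMP signalling and is itself induced by it, by 0.95 ± 0.17 on the log2 scale (ratios of 0.811, 0.699 and 0.553 in exposed pools, against 1.51, 1.19 and 1.25 in control pools; adjusted p = 0.0219). For both genes the groups did not overlap. Nog1 lost its call without any 1 array other than control pool 2 (adjusted p up to 0.117), and bambia without exposed pool 2 or 3 or control pool 3 (up to 0.0709).

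Among 51 probe sets of 40 other genes of the blastema and of fin regeneration, 5 rose and 3 fell (2.88% and 3.24% over all probe sets). Without overlap, 14 were higher and 7 lower (14.5% and 11.8% over all probe sets). The list was chosen with earlier results of these data known, so its counts are no test of the list against all probe sets. The median of the 51 was 0.07. The 4 of smallest p were tdgf1, which encodes a Nodal co-receptor (3.96 ± 0.16, adjusted p = 8.05e-05), the nucleosome-binding protein gene hmgn2 (-0.98 ± 0.13, adjusted p = 0.00764), the connective tissue growth factor gene ccn2a (0.85 ± 0.15, adjusted p = 0.0210) and sp8b, a zinc finger factor gene of the apical epidermis (-0.62 ± 0.11, adjusted p = 0.0226). Of these, tdgf1 and hmgn2 kept their calls without any 1 array. Ccn2a lost its call with exposed pool 1, 2 or 3 or control pool 3 left out, and sp8b without exposed pool 2 or 3 or control pool 3. No probe set passed among 23 of homeodomain and other factors of the fin, where the median was 0.10. Of the 23, 4 were higher and 1 lower without overlap, against 14.5% and 11.8% of all probe sets.

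**Figure D5:**
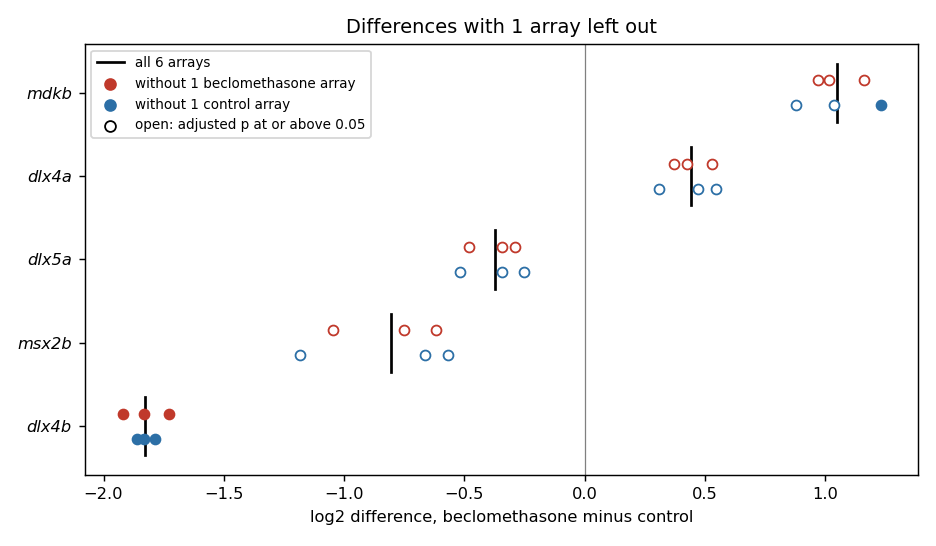
Log2 difference (beclomethasone minus control) of mdkb, dlx4a, dlx5a, msx2b and dlx4b with all 6 arrays (black bar) and with 1 array left out (points, beclomethasone arrays above control arrays in each row; filled where the adjusted p was under 0.05). Dlx4b passed in each of the 6 fits, mdkb only without control pool 1, and dlx4a, dlx5a and msx2b in none.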

How the data were processed

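The values deposited by the authors were read as linear ratios per probe set of an Affymetrix zebrafish array. Per the submitters' processing notes the tool was GCRMA. A division by medians, with its method not given in the sources used here, was inferred from the values: over the 6 arrays, 12601 of 15617 probe sets had a median of 1 (within 1e-06) and 3015 had a lower one. Labelling used a 2-cycle kit, per the labels' protocols.

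After 115 control probe sets were left out, log2 ratios of 15502 probe sets, with no pseudocount and no filter on low values, entered 1 moderated linear model (lmFit, then eBayes) of limma 3.58.1, run in R 4.3.3 and tested on simulated data. Tests were two-sided, with Benjamini-Hochberg adjustment over all probe sets and a threshold of 0.05. A gene name was used where a probe set had 1 symbol, which held for 10795 probe sets and 8793 genes. Symbols and gene order come from RefSeq's table (assembly GRCz12tu). No sequences were used here.

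The members and gene lists were chosen with earlier results of these data known. The ribosomal protein list was added after the values of msx2b were seen. Named genes are all members, their family genes, all passing probe sets of a list (the 4 of smallest p where over 6 passed), and the 3 named probe sets most correlated with a passing member; msx2b was added to the last rule after its values were seen. Alternatives were quantile normalization, median centring, array weights, a mean-variance trend (robust), the replicate number as a block, leaving out each array in turn, pseudocounts of 0.1 and 1, leaving out probe sets of median below 1, and genes as the unit.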

Additional observations from a re-analysis of the deposited data

How the results depend on the processing

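With 3 arrays a group, counts depended on single arrays. With 1 array left out, 176 to 565 probe sets were higher and 180 to 668 lower in exposed fins, and 0 to 2 member probe sets were higher (2 without control pool 1 and 0 in the other 5 fits). Array weights gave 1073 higher and 1104 lower. Leaving out exposed pools 1 and 2 together, which was chosen after seeing the data and assumes that the lone exposed array varies like the controls, left 2 higher, 2 lower and 0 members. With the replicate number as a block, 200 were higher and 236 lower, and mdkb stayed called, while notch2 (adjusted p = 0.0921), nog1 (0.0606), ccn2a (0.0726) and sp8b (0.0721) were not. The main fit did not take the numbers as pairs, because it was the plain comparison of groups that the labels give. Deviations of same-numbered arrays correlated at -0.21, -0.04 and 0.11. Being deviations from means of 3 arrays, they cannot settle whether the numbers are pairs. No member passed as lower in any of these fits. Of 489 alternative values of single genes, 409 kept direction and side of the threshold, 50 lost the call of the main fit and 3 gained a call. The 409 include values of uncalled genes that stayed uncalled, so they do not measure how stable the calls were. The called member, mdkb, kept its call in 10 of 16 alternatives. None of the 27 values of turned sign was past the threshold or belonged to a called gene. Quantile normalization gave -0.071 for the low-median msx3 probe set, -0.061 for the x_at probe set of sall4 and 0.010 for dlx2b. Median centring gave -0.0048 for the low-median msx3 probe set and -0.012 for the RefSeq-annotated one. Array weights gave 0.051 for dlx2a, 0.27 for dlx2b, 0.087 for dlx3b and 0.14 for dlx6a. For the other sall4 probe set, the mean of both probe sets was 0.013 and the value without exposed pools 1 and 2 was 0.062. With 1 array left out, the ranges that crossed 0 were -0.079 to 0.099 (low-median msx3), -0.11 to 0.11 (RefSeq-annotated msx3), -0.0099 to 0.12 (msx1a), -0.28 to 0.17 (dlx2a), -0.059 to 0.025 (other sall4), -0.0074 to 0.090 (x_at sall4), -0.18 to 0.17 (dlx2b), -0.26 to 0.016 (dlx3b), -0.19 to 0.19 (dlx6a) and -0.15 to 0.036 (sall1a). Signal over background is unknown; the causes of these shifts were not tested.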
